A study of Mus musculus with 72 samples.

Results

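Liver mRNA of wild-type (WT) mice was compared between 9 arrays from the middle of the dark phase, at ZT16, ZT18 and ZT20, and 9 from the middle of the light phase, at ZT4, ZT6 and ZT8, with 3 animals at each time. They are 18 of the 72 arrays of a study of diurnal liver mRNA in WT and Scp2 knockout (KO) mice, in which Scp2, the gene of sterol carrier protein 2, is missing. All were young adult male mice, the WT being C57Bl/6J, kept with lights on at ZT0 and off at ZT12, and every group received food only at night for several days before sampling, so that darkness, feeding and clock time cannot be told apart between the 2 phases. The arrays chosen were those whose labels give the WT genotype and these 6 times. The 18 KO arrays of the same times and the other 18 WT arrays, at dusk and dawn, serve only for comparison.

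Liver mRNA follows the day in a way that is known in outline. A transcriptional clock, in which ARNTL and CLOCK drive the genes of their own repressors, runs in each hepatocyte, and on top of it come signals that reach the organ once a day: food and insulin, glucocorticoids, which in nocturnal rodents are highest around the onset of activity, and body temperature, which is highest while the animals are active. Fed liver stores glycogen and makes fat, whereas fasted liver breaks down its own constituents by autophagy. Whole liver was measured, so less RNA per cell and fewer cells of a type cannot be told apart.

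Of 16593 genes measured, 726 (4.38%) were higher at night and 866 (5.22%) were higher by day at an adjusted p of 0.05 in limma, together 9.59%. Bright genes were called more often: of the 4148 with the highest levels, 522 were night-high and 609 day-high. Of the 50 lists of pathway genes used below, 36 exceeded the night-high and 29 the day-high share of all genes, so exceeding it is common among them. The changes were mostly modest, with a median log2 difference of 0.28 for the night-high and -0.27 for the day-high genes, while 34 and 19 genes exceeded a difference of 1. For 81 night-high genes (0.488% of all) all 9 night arrays lay above all 9 day arrays, and for 117 day-high genes (0.705%) all lay below, together 1.19% of genes. Levels were most often highest at ZT16 (26.7%) and ZT18 (23.8%) for the night-high genes and at ZT8 (34.4%) and ZT6 (25.6%) for the day-high genes, when the means of all 12 WT times were compared. The balance between the directions rested on the scaling: when arrays were scaled to equal medians in place of equal distributions, 145 genes were higher at night and 874 by day, so that the night-high share of all calls went from 45.6% to 14.2%. In the deposited signals the brightest probes (95th percentile of each array) averaged 9.26 ± 0.25 at night and 9.42 ± 0.18 by day (log2, SD, n = 9 each), and under median scaling the 4148 brightest genes had a median difference of -0.12. Without set WT10, 1 of the 3 named sets of arrays, 393 night-high and 530 day-high genes passed; without WT6 the night-high count was 458, without WT9 the day-high count was 530, and without ZT8 the counts were 436 and 563. Without ZT16 the day-high count was 574.

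The clock genes are given first. Of 12 measured repressor and output genes 4 were higher at night and 3 by day, against 4.38% and 5.22% of all genes. Per2, which encodes a repressor of ARNTL and CLOCK, had night arrays from 8.43 to 9.78 (median 9.11) and day arrays from 6.57 to 7.97 (median 6.93). The groups did not overlap, and the difference was 1.97 ± 0.14 log2 (SE), adjusted p = 2.28e-07, a 3.93-fold higher level at night. Nr1d1, which encodes the repressor REV-ERBα, had night arrays from 5.98 to 6.40 (median 6.10) and day arrays from 7.55 to 8.36 (median 8.0). All night arrays of this gene were low, and the difference was -1.78 ± 0.04 log2 (SE), adjusted p = 4.18e-13, a 3.45-fold higher level by day. Bhlhe40 (0.83), Per1 (0.64) and Tef (0.44) were also higher at night and Dbp (-1.24) and Nr1d2 (-0.52) by day, in log2 differences. For several of these the phases were not uniform: Dbp, a PAR bZIP activator of output genes, ranged from 6.39 to 11.52 over the day arrays, and its difference was -0.18 without ZT8 (adjusted p = 0.79). Bhlhe40 and Tef no longer passed without ZT4 (0.35 and 0.19), nor Tef without ZT16 (0.29), nor Nfil3 without ZT8 (0.13) or ZT20 (0.42), nor Nr1d2 without ZT8 (-0.33) or set WT6 (-0.44). The list of the activator loop held Arntl, Clock, Npas2, Rora, Nfil3 and Cry1, of which the last 2 encode repressors. Of these only Nfil3, a repressor of PAR bZIP targets that responds to REV-ERBα, passed (0.56 ± 0.11 log2 (SE), adjusted p = 0.00294), with Arntl at 0.14 and Clock at 0.19 log2, and Clock did pass when the sets were taken as blocks (adjusted p = 0.0186). Bhlhe41 (-0.01), Ciart (0.17), Cry1 (0.02), Cry2 (0.10), Hlf (0.02), Npas2 (-0.02), Per3 (0.01) and Rora (0.07) did not pass. Mean levels of Bhlhe41 and Cry1 lay below the median of all genes (6.03 log2) at every time, and those of Hlf, Npas2 and Per3 lay near it. For these dim probes the lack of a call need not mean a steady mRNA. A second Per2 probe gave 1.79 and another, 0.05, while second probes gave -0.95 for Nr1d1, 0.32 for Per1, 0.05 for Tef and -0.05 for Nr1d2. In the other 18 WT arrays 9 of the 12 repressor and output genes were higher at dusk (ZT10, ZT12, ZT14) than at dawn (ZT22, ZT0, ZT2), against 3.76% of all genes, and of the other 6 genes Arntl, Clock, Nfil3 and Npas2 were higher at dawn, against 4.22%.

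**Figure D1:**
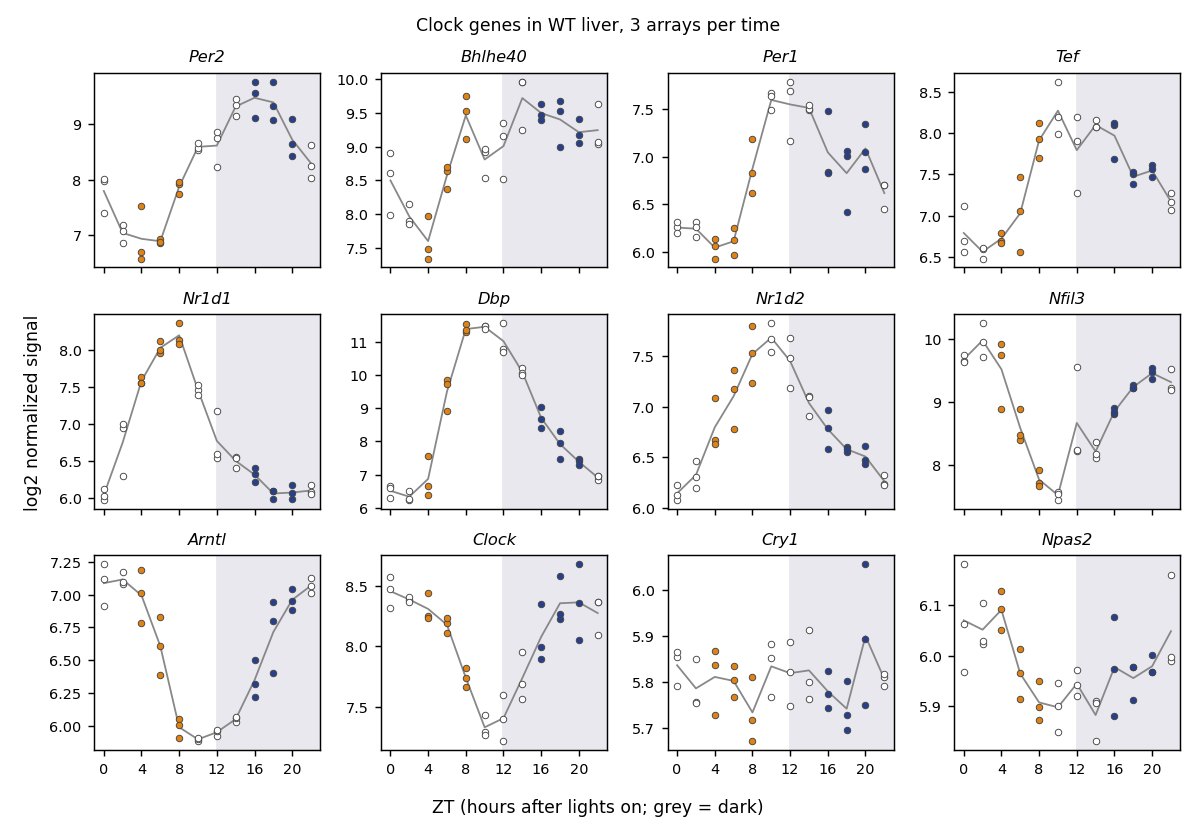
Log2 normalized signal of 12 clock genes in WT liver against ZT, with 1 point per array (3 per time), a line through the means and the dark phase shaded. Filled blue points are the 9 mid-night and filled orange points the 9 midday arrays. The groups do not overlap for Nr1d1 and Per2, whereas Arntl, Clock, Dbp and Nfil3 change steeply from ZT4 to ZT8.

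The promoters of 2 clock genes that were higher at night hold motifs of clock factors. The stretches are the 250 bases before the start site in RefSeq (GRCm38.p6), Per1 from chr11:69098699-69098948 on the plus strand with its E-box CACGTG in capitals, and Nfil3 from chr13:52981040-52981289 on the minus strand with the core of the ROR element, TAGGTCA, in capitals (read here from its other strand).
Per1: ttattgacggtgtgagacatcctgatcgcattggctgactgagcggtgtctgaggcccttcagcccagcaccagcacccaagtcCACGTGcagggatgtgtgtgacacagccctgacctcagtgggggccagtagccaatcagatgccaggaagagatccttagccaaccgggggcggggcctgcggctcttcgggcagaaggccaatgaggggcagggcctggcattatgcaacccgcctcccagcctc
Nfil3: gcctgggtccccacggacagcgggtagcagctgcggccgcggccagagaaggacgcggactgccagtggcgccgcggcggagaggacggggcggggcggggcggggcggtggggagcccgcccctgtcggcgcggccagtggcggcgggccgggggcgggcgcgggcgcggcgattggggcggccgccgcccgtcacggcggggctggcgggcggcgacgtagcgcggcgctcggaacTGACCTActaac
Both strands were searched, from 250 bases before to 50 after the start, in the 13336 measured genes with such a window. CACGTG was in 9.68% of them, in 15.6% of the night-high genes, in 13.2% of the day-high genes and in 11.3% of uncalled genes with levels above the median. TAGGTCA was in 2.52% of all, 2.84% of night-high and 2.67% of day-high genes. Among clock genes with a window CACGTG was in 4 of 10 repressor and output genes and 1 of 6 of the activator loop, and TAGGTCA in 0 and 2. Tef also holds CACGTG, as do Bhlhe41, Ciart and Cry1, which did not pass. Arntl, which did not pass, holds TAGGTCA. A match is a description of the sequence only.

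Heat shock chaperones were higher at night wherever they passed the test. Of 24 measured members, genes of chaperones and co-chaperones of the cytosol and mitochondria, 11 were higher at night and none by day, against 4.38% and 5.22% of all genes, and the median log2 difference was 0.29, against 0.00 for all genes. Hsph1, an HSP110 nucleotide exchange factor, had night arrays from 8.497 to 9.66 (median 9.48) and day arrays from 6.78 to 8.90 (median 7.34). A single ZT4 array reached into the night range, and the difference was 1.62 ± 0.13 log2 (SE), adjusted p = 1.17e-06, a 3.08-fold higher level at night. Chordc1, an HSP90 co-chaperone, had night arrays from 8.75 to 9.44 (median 9.15) and day arrays from 7.78 to 8.99 (median 7.99), and the difference was 0.94 ± 0.10 log2 (SE), adjusted p = 1.07e-05. Stip1 (0.90), which links HSP70 to HSP90, and the small heat shock protein gene Hspb1 (0.90) rose too, as did Dnajb1 (0.84), Bag3 (0.79), Hspa8 (0.79), Hspb8 (0.65), Fkbp4 (0.64), Ahsa1 (0.32) and Cct3 (0.31). Hspa1a (0.12) and Hsp90aa1 (0.15) did not pass. Cirbp, whose mRNA rises with cold, had night arrays from 6.16 to 6.58 (median 6.27) and day arrays from 6.36 to 6.95 (median 6.81) and fell by 0.44 at night (SE 0.08, adjusted p = 0.0012). The only other measured gene on the list of cold-inducible RNA-binding proteins had a difference of 0.21 and did not pass. Under median scaling 7 of the 24 chaperone genes were higher at night. Body temperature was not recorded in the files used here.

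The heat shock element, taken as GAA, TTC and GAA with 2 bases between neighbours and searched on both strands, was in 4 of 19 chaperone genes with a promoter window, against 0.57% of all genes, 1.17% of night-high and 0.281% of day-high genes. The 30 bases around it are shown for the chaperone genes with the largest differences, with the element in capitals: chr5:149636280-149636309 on the minus strand for Hsph1 (read from its other strand), and chr9:18292259-18292288 on the plus strand for Chordc1, where 3 matches overlap (RefSeq, GRCm38.p6).
Hsph1: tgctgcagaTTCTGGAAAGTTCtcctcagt
Chordc1: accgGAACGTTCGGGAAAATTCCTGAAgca
Hspd1 (0.25) and Hspe1 (0.32), which encode the mitochondrial chaperonin and hold the other matches, did not pass the test.

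Genes that respond to glucocorticoids were higher at night in 7 of 15 measured members and by day in 1, against 4.38% and 5.22% of all genes. The list median was 0.27 log2. Tsc22d3, the glucocorticoid-induced leucine zipper, had night arrays from 9.03 to 10.48 (median 9.999) and day arrays from 7.86 to 8.98 (median 8.26), with no overlap, and its difference was 1.57 ± 0.17 log2 (SE), adjusted p = 1.72e-05. Fkbp5, a co-chaperone of the glucocorticoid receptor, had night arrays from 6.61 to 8.73 (median 8.12) and day arrays from 6.33 to 6.83 (median 6.42). Its day arrays were uniformly low and 2 night arrays, both of ZT20, lay within their range, and its difference was 1.33 ± 0.24 log2 (SE), adjusted p = 0.00137. Dusp1 (1.03), Cdkn1a (0.86), Errfi1 (0.76), Per1 (0.64) and Ddit4 (0.56) were higher at night and Klf9 (-0.61) by day. Other Cdkn1a probes gave 0.29 and 0.16. Mt1 (0.27), Mt2 (0.10), Sgk1 (0.17) and Tat (0.04) did not pass, and the Tat probe lay at the 1.15th percentile of level. Leaving out a set or a time gave 5 to 7 members, with a list median of 0.70 without set WT10 and 0.61 without ZT18.

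Ribosome biogenesis followed the same direction with smaller changes: 12 of 48 measured members were higher at night and none by day, against 4.38% and 5.22% of all genes. The list median was 0.06, with 36 members above 0. Rrp12, needed for export of ribosomal subunits, had night arrays from 7.11 to 7.96 (median 7.83) and day arrays from 6.68 to 7.29 (median 6.97), and the difference was 0.74 ± 0.09 log2 (SE), adjusted p = 3.26e-05. Pes1 (0.46), Mybbp1a (0.35), Mrto4 (0.27), Nop56 (0.26) and Nop2 (0.26) followed, though other Mybbp1a probes gave 0.10 and 0.09. The count was 2 under median scaling, 4 without set WT10, 5 without WT6, 5 without ZT8 or ZT16, 6 without ZT18 and 7 without ZT6. The genes of the ribosome itself did not share it, since 1 of 59 cytosolic ribosomal protein genes passed, Rpl22, which was higher by day (-0.46 ± 0.04 log2 (SE), adjusted p = 1.95e-06). Of 39 translation factors 5 were higher at night and 2 by day, led by Eif4ebp3, an inhibitor of cap-dependent translation, with night arrays from 7.18 to 8.98 (median 7.92) and day arrays from 6.21 to 6.82 (median 6.45) and a difference of 1.56 ± 0.17 log2 (SE), adjusted p = 2.32e-05. Odc1, the first enzyme of polyamine synthesis, named here after its value was seen, had night arrays from 9.86 to 10.43 (median 10.27) and day arrays from 8.73 to 9.61 (median 9.06), with no overlap (1.11 ± 0.10 log2 (SE), adjusted p = 2.24e-06).

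**Figure D2:**
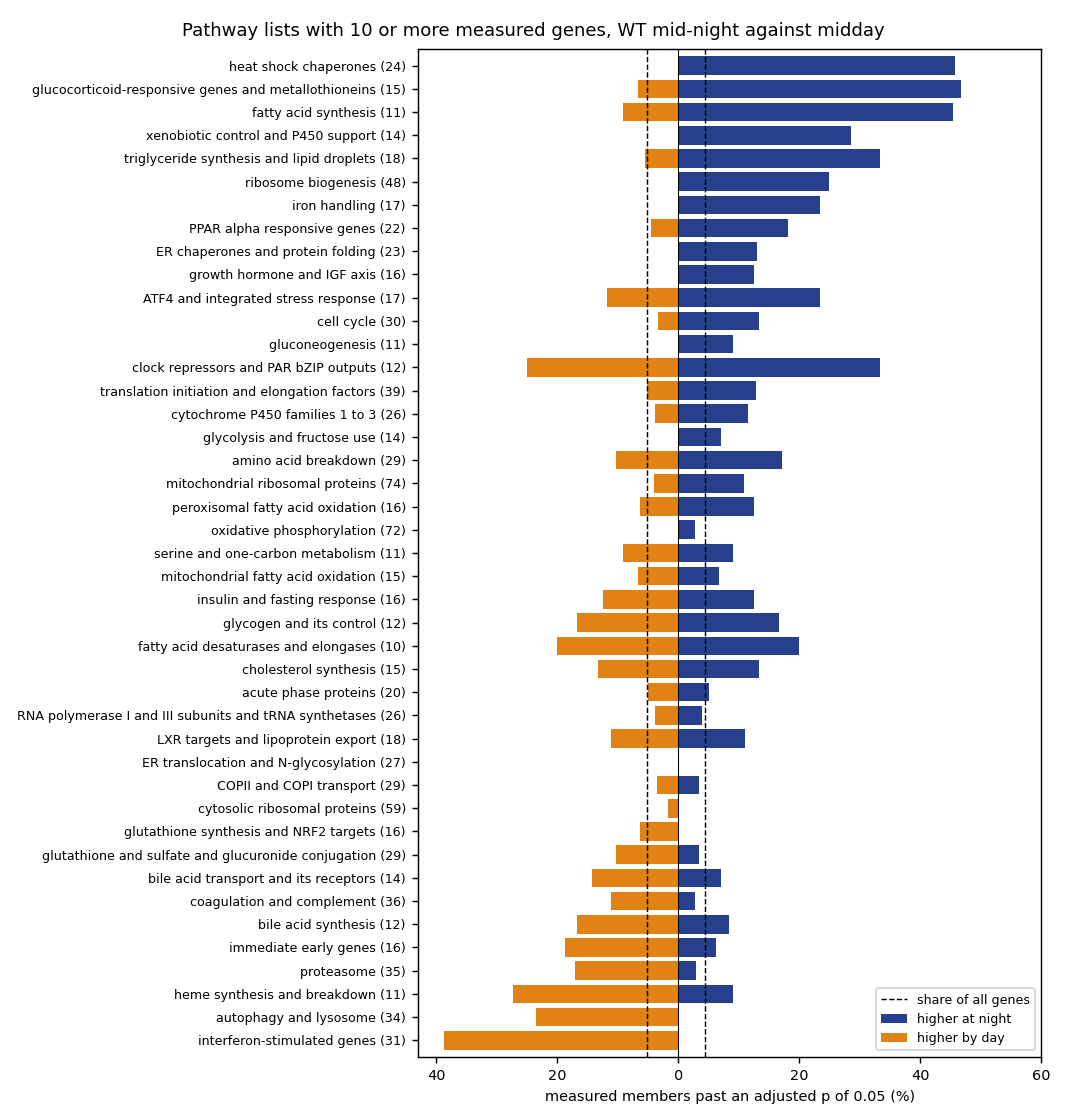
Share of the measured members of each pathway list (number in brackets) that were higher at night (blue, to the right) or by day (orange, to the left) in WT liver, in percent, for lists with 10 or more measured genes. Dashed lines are the shares of all genes, 4.38% and 5.22%. Lists are ordered by the difference of the shares, from heat shock chaperones to interferon-stimulated genes.

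Fat synthesis had 5 of 11 measured members higher at night and 1 by day, against 4.38% and 5.22% of all genes, and a list median of 0.26. Thrsp, an activator of lipogenesis that follows carbohydrate feeding, showed the largest difference of any gene higher at night, with night arrays from 8.96 to 12.05 (median 11.58) and day arrays from 8.27 to 9.33 (median 8.62). One ZT20 array lay in the day range, and the difference was 2.45 ± 0.25 log2 (SE), adjusted p = 1.07e-05, a 5.45-fold higher level at night. Aacs, which activates acetoacetate for lipid synthesis, had night arrays from 8.72 to 10.74 (median 9.81) and day arrays from 6.95 to 8.79 (median 8.11) and rose as well (1.64 ± 0.21 log2 (SE), adjusted p = 7.32e-05), with the elongase Elovl6 (1.02), Mid1ip1 (0.74), an activator of acetyl-CoA carboxylase, and Acaca (0.26), the carboxylase. Acss2 was higher by day (-0.65). Acly (0.37), Scd1 (-0.11) and Fasn (0.07) did not pass, and the Fasn probe lay at the 56.6th percentile of level. The count was 3 under median scaling, without set WT10 and without ZT6. Srebf1, whose product drives these genes after feeding, had night arrays from 7.94 to 8.66 (median 8.34) and day arrays from 6.72 to 7.62 (median 7.15), without overlap (1.09 ± 0.11 log2 (SE), adjusted p = 9.57e-06), while a second probe gave 0.02, and Insig2 (-0.69) and Scap (-0.37), which control the cleavage of SREBPs, were higher by day. Elovl5 was higher by day, with night arrays from 10.51 to 11.87 (median 11.05) and day arrays from 11.71 to 12.52 (median 12.03) (-0.94 ± 0.11 log2 (SE), adjusted p = 3.72e-05), as was Elovl3 (-0.77).

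In triglyceride synthesis and lipid droplets 6 of 18 measured members were higher at night and 1 by day. The lipid droplet coat genes moved in opposite directions. Plin5 had night arrays from 8.14 to 8.85 (median 8.598) and day arrays from 7.10 to 8.201 (median 7.76) (0.84 ± 0.08 log2 (SE), adjusted p = 9.57e-06), and Plin2 had night arrays from 7.19 to 7.94 (median 7.63) and day arrays from 7.997 to 8.62 (median 8.39) (-0.77 ± 0.12 log2 (SE), adjusted p = 6.63e-04). Mgll (0.68), Dgat2 (0.42), Agpat2 (0.37), Plin4 (0.32) and Lpin1 (0.96) were higher at night, though 2 other Lpin1 probes gave 0.03 and 0.01. Of 22 PPARα-responsive genes 4 were higher at night and 1, Plin2, by day, against 4.38% and 5.22% of all genes, the former including the thioesterase genes Acot1 (0.85), Acot4 (0.62) and Acot3 (0.69). Acot3 lost its call in 11 of 18 alternatives and was 0.37 without set WT9. Cyp4a14 did not pass, with night arrays from 7.76 to 10.89 (median 9.75) and day arrays from 7.29 to 10.63 (median 9.61) and a wide spread in both phases. Mitochondrial fatty acid oxidation had 1 of 15 higher at night and 1 by day.

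Cholesterol and bile acid genes differed in direction, and most members of both synthesis lists did not pass. Cyp7a1, which sets the rate of bile acid synthesis, had night arrays from 10.75 to 11.68 (median 11.45) and day arrays from 8.32 to 10.35 (median 9.31). The groups did not overlap, and the difference was 1.99 ± 0.25 log2 (SE), adjusted p = 5.90e-05, a 3.98-fold higher level at night. Enzymes of 2 later steps were higher by day: Hsd3b7 had night arrays from 11.58 to 12.58 (median 12.12) and day arrays from 12.94 to 13.40 (median 13.10) (-1.11 ± 0.08 log2 (SE), adjusted p = 4.84e-07), and Cyp8b1, which makes cholic acid, had night arrays from 11.34 to 12.38 (median 11.97) and day arrays from 12.32 to 12.86 (median 12.60) (-0.71 ± 0.09 log2 (SE), adjusted p = 7.49e-05). The canalicular exporters Abcb11, the bile salt pump (-0.74), Abcb4, for phosphatidylcholine (-0.41), and Abcg8, for sterols (-0.85), were higher by day too. The other 9 of 12 bile acid synthesis genes did not pass. Of 15 cholesterol synthesis genes Hmgcs1 (-0.82) and Nsdhl (-0.48) were higher by day and Sc5d (0.41) and Mvd (0.35) at night, while Sqle had a difference of 0.41 (adjusted p = 0.24, and 0.0395 with sets as blocks). Mvd lost its call in 11 of 18 alternatives. The shares higher at night and by day were 13.3% and 13.3% for cholesterol and 8.33% and 16.7% for bile acid synthesis. Of all genes they were 4.38% and 5.22%.

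In carbohydrate and nitrogen metabolism the changes were held by single genes. Ppp1r3b, which targets protein phosphatase 1 to glycogen, had night arrays from 7.32 to 8.48 (median 8.25) and day arrays from 6.10 to 7.09 (median 6.503), without overlap (1.499 ± 0.16 log2 (SE), adjusted p = 1.36e-05), and glycogen synthase Gys2 rose at night (0.55 ± 0.08 log2 (SE), adjusted p = 3.59e-04), whereas Ugp2, which makes UDP-glucose, was higher by day (-0.48 ± 0.04 log2 (SE), adjusted p = 1.88e-06). Pygl (-0.18), G6pc (0.62), Pck1 (0.00) and Pklr (0.10) did not pass. Asl, of the urea cycle, had night arrays from 9.77 to 10.45 (median 10.08) and day arrays from 8.88 to 9.50 (median 9.205), without overlap (0.88 ± 0.10 log2 (SE), adjusted p = 2.35e-05), and was the only 1 of 9 urea cycle genes to pass. Among 29 genes of amino acid breakdown 5 were higher at night, Ahcy (0.52) and Prodh (0.46) among them, and 3 by day: Agxt (-0.69), Cbs (-0.64) and Hal (-0.63). The shares of all genes were 4.38% at night and 5.22% by day. Nnmt, which methylates nicotinamide, was higher at night (1.47 ± 0.20 log2 (SE), adjusted p = 1.35e-04).

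Genes of xenobiotic metabolism passed in both directions. Of 14 genes that control or support the P450 system 4 were higher at night and none by day, of 26 genes of P450 families 1 to 3, 3 and 1, and of 29 conjugation genes, 1 and 3. These shares were 28.6% and 0%, 11.5% and 3.85%, and 3.45% and 10.3%, against 4.38% and 5.22% of all genes. Among 11 heme genes 1 was higher at night and 3 by day. The former was Alas1, the rate-limiting enzyme of heme synthesis, with night arrays from 12.12 to 13.51 (median 13.07) and day arrays from 10.04 to 12.52 (median 11.49). Its day arrays of ZT4 and ZT6 each held 1 value above the lowest night array, and the difference was 1.49 ± 0.30 log2 (SE), adjusted p = 0.00414. Fmo5 had night arrays from 10.96 to 11.54 (median 11.21) and day arrays from 9.76 to 10.14 (median 9.93), without overlap (1.23 ± 0.07 log2 (SE), adjusted p = 4.64e-08). Cyp2a5 rose (1.11 ± 0.07 log2 (SE), adjusted p = 1.71e-07) and so did Cyp2b10, which the constitutive androstane receptor controls (1.28 ± 0.34 log2 (SE), adjusted p = 0.025), though a second Cyp2b10 probe gave 0.06, and Cyp2e1 did not pass (0.04). Higher by day were Cyp2c55 (-0.52) and the conjugation genes Gstm4 (-0.53), Sult1c2 (-0.39) and Gstm6 (-0.27), against Sult1a1 (0.49) at night. In iron handling 4 of 17 members were higher at night, the transferrin receptor Tfrc with night arrays from 7.42 to 8.54 (median 8.37) and day arrays from 6.59 to 7.75 (median 6.95) (1.11 ± 0.13 log2 (SE), adjusted p = 5.28e-05) and hepcidin, Hamp, the hormone that blocks iron export, with night arrays from 12.25 to 13.25 (median 12.70) and day arrays from 10.95 to 12.49 (median 11.81) (0.86 ± 0.15 log2 (SE), adjusted p = 9.82e-04). Of 23 ER chaperone genes 3 were higher at night, led by Creld2 (1.198 ± 0.21 log2 (SE), adjusted p = 0.00137), and Hspa5 had a difference of 0.15 (adjusted p = 0.42).

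**Figure D3:**
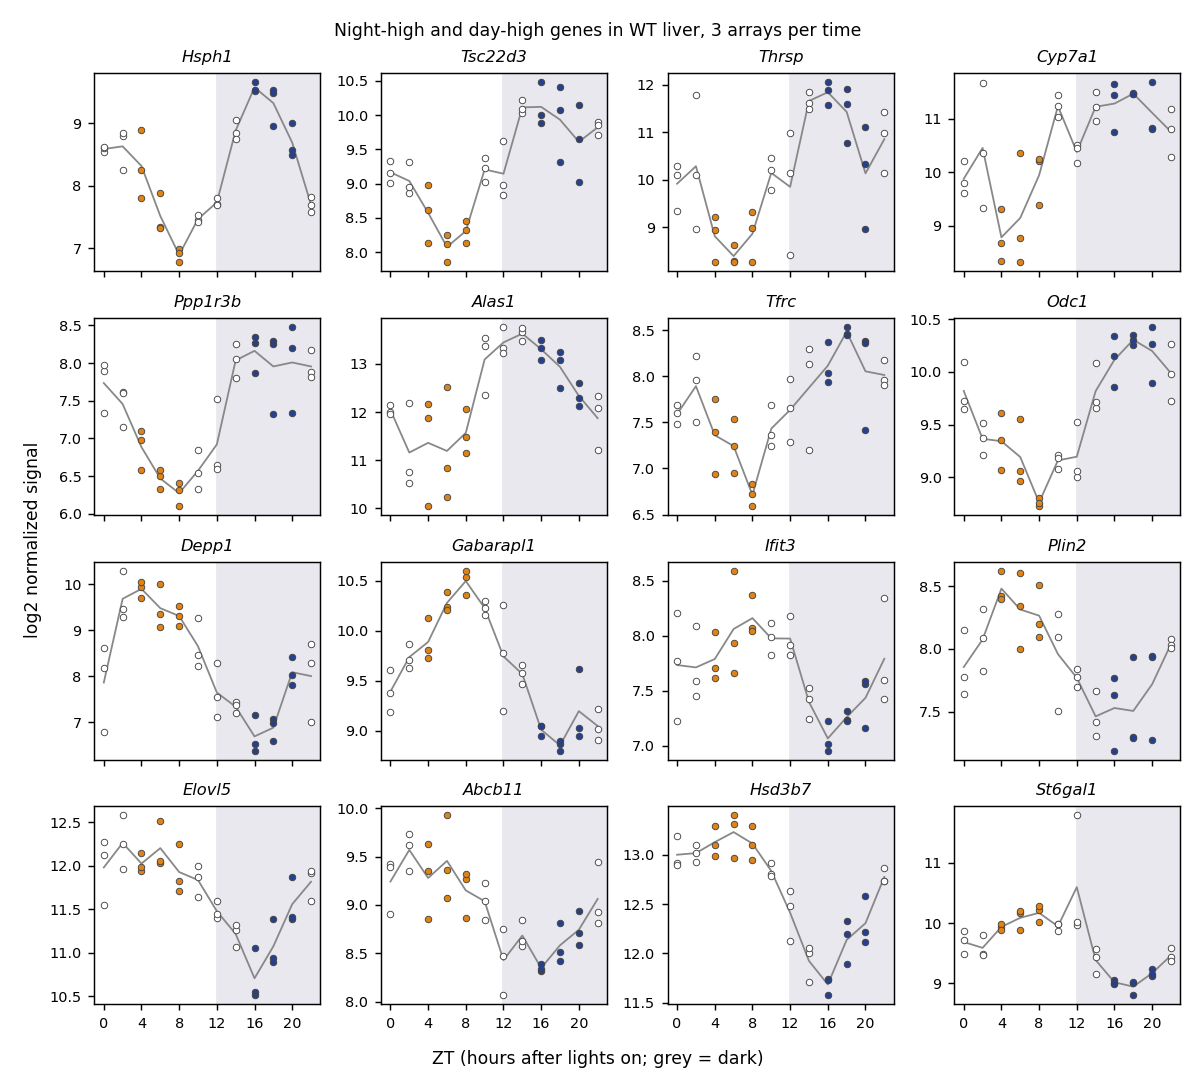
Log2 normalized signal of 16 genes in WT liver against ZT, drawn as for the clock genes: the upper 2 rows were higher at night and the lower 2 by day. The mid-night (blue) and midday (orange) arrays do not overlap for Tsc22d3, Cyp7a1, Ppp1r3b, Odc1, Depp1, Gabarapl1, Ifit3, Plin2, Hsd3b7 and St6gal1; the high St6gal1 point at ZT12 is 1 array outside the comparison.

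Autophagy genes were higher by day wherever they passed. Of 34 measured autophagy and lysosome genes 8 were higher by day and none at night, against 5.22% of all genes, with a list median of -0.05. Gabarapl1, an ATG8 protein of the autophagosome membrane, had night arrays from 8.80 to 9.62 (median 8.95) and day arrays from 9.73 to 10.60 (median 10.24), without overlap (-1.2 ± 0.08 log2 (SE), adjusted p = 1.71e-07), a 2.3-fold higher level by day. Ulk1, the kinase that starts autophagy, had night arrays from 7.10 to 7.80 (median 7.31) and day arrays from 7.44 to 8.43 (median 7.95) (-0.59 ± 0.08 log2 (SE), adjusted p = 1.56e-04), and its second probe gave -0.53. Wipi1 (-0.39), Atg2a (-0.37), Sqstm1 (-0.36), Map1lc3b (-0.29), Atg13 (-0.29) and Ctsl (-0.14) completed the 8, but a second Atg2a probe gave 0.06. The count was 4 without set WT10, 5 without WT6 and 5 without ZT18. Depp1, a FOXO target linked to autophagy, was the gene with the largest difference among those higher by day, with night arrays from 6.38 to 8.42 (median 7.07) and day arrays from 9.07 to 10.05 (median 9.52), without overlap (-2.34 ± 0.14 log2 (SE), adjusted p = 4.64e-08), a 5.06-fold higher level by day. Flcn, which acts in nutrient sensing at the lysosome, and Lonp2, the peroxisomal protease, both named after their values were seen, were higher by day without overlap (-0.85 and -0.87), though a second Flcn probe gave -0.14.

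Among lists with 10 or more measured genes, interferon-stimulated genes had the largest share higher by day: 12 of 31 measured members, against 5.22% of all genes. None was higher at night, the median was -0.11 and 4 members were above 0. Usp18, which restrains interferon signalling, had night arrays from 7.18 to 7.87 (median 7.38) and day arrays from 7.82 to 8.75 (median 8.16) (-0.81 ± 0.11 log2 (SE), adjusted p = 9.23e-05), and its other probes gave -0.73 and -0.32. Rsad2, the antiviral protein viperin, had night arrays from 6.65 to 7.72 (median 7.06) and day arrays from 7.57 to 8.52 (median 7.88) (-0.77 ± 0.12 log2 (SE), adjusted p = 4.35e-04). Ifit3 had night arrays from 6.95 to 7.59 (median 7.23) and day arrays from 7.62 to 8.59 (median 8.04), without overlap (-0.75 ± 0.11 log2 (SE), adjusted p = 2.36e-04). Its other probes gave smaller differences, -0.17 and -0.18. Isg15 (-0.50), Parp14 (-0.45), Gbp3 (-0.38), Dhx58 (-0.31), Oasl2 (-0.24), Irf9 (-0.22), Ifit2 (-0.16), Oas1g (-0.15) and Ddx58 (-0.14) passed as well, whereas Ifit1 (-0.03), Irf7 (-0.09) and Stat2 (0.15) did not. The count was 7 without set WT6, without WT9 or without ZT16. Macrophages also express these genes. None of 13 Kupffer cell and macrophage markers passed, 11 of them had differences below 0 and their median was -0.21. Their summed level ran from 10.64 to 12.10 at night and from 10.98 to 12.47 by day (log2), with Clec4f, the marker particular to Kupffer cells, at a difference of -0.38 (adjusted p = 0.29) and the Cd5l probe at the 7.98th percentile of level, and the part of these cells in the result was not tested.

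The interferon-stimulated response element, taken as TTTC, any 2 bases and TTTC on either strand, was in 13 of the 21 genes of this list with a promoter window, against 4.11% of all genes, 4.35% of day-high and 3.51% of night-high genes. Bst2, Ifih1, Ifit1, Igtp, Irgm1, Oas1a and Stat2 hold it and did not pass the test. The 250 bases before the start site are shown for 3 day-high members with a match, with the element in capitals: chr12:26456453-26456702 on the minus strand for Rsad2, chr19:34583279-34583528 on the plus strand for Ifit3, with 2 matches, and chr4:156200819-156201068 on the minus strand for Isg15, where 3 matches on the other strand overlap (RefSeq, GRCm38.p6).
Rsad2: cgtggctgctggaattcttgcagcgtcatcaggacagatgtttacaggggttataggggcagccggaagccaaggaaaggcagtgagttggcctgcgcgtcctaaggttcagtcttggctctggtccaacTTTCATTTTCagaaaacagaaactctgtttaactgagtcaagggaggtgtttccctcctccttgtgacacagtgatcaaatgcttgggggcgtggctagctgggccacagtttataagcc
Ifit3: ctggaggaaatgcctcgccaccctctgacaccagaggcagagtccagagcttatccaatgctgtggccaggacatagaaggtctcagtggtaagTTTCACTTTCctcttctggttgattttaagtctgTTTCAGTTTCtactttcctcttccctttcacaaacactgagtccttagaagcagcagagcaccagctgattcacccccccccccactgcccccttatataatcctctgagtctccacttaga
Isg15: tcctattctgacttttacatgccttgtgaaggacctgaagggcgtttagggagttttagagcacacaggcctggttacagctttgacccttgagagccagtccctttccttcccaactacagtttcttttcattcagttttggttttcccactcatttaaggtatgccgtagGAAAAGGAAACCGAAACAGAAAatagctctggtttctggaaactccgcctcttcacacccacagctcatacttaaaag

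**Figure D4:**
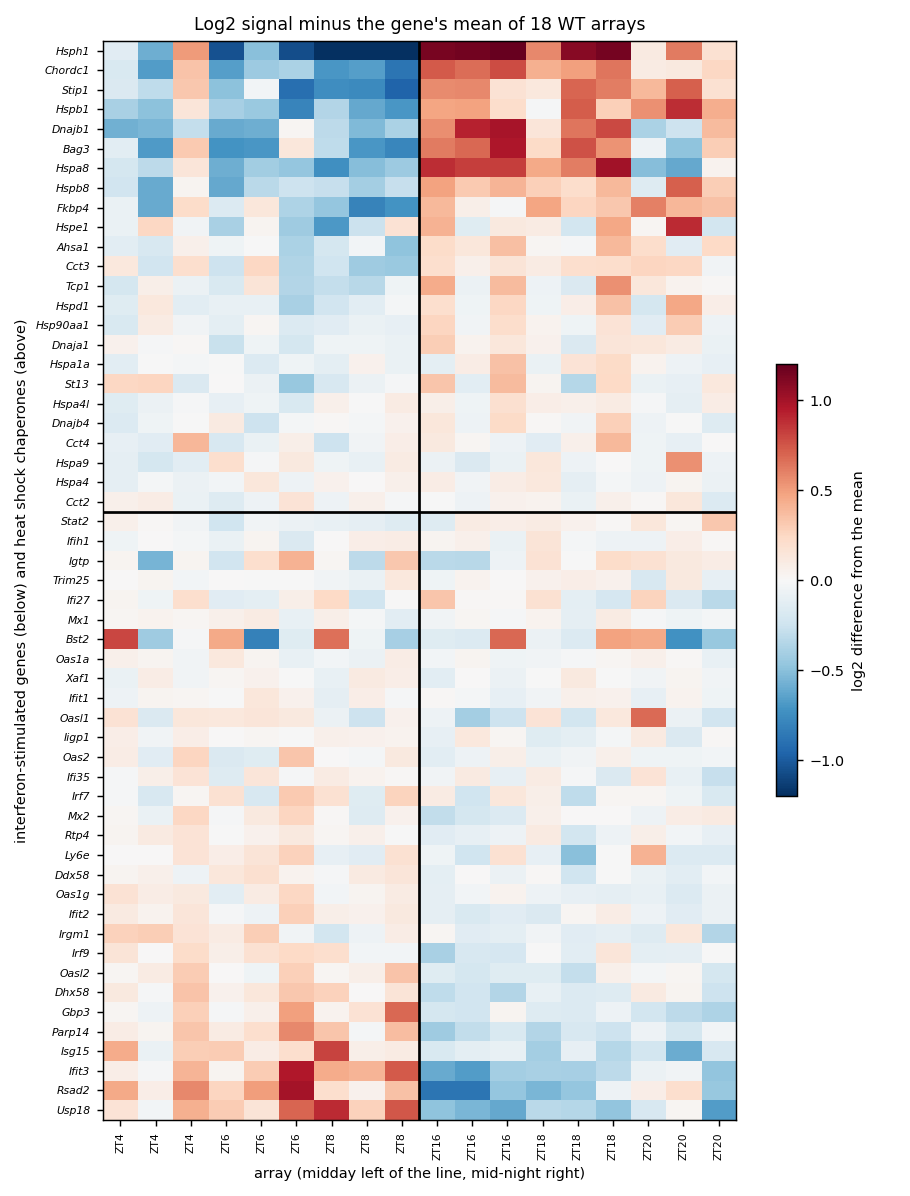
Log2 signal of each measured heat shock chaperone gene (upper block, 24 genes) and interferon-stimulated gene (lower block, 31 genes) minus its mean over the 18 WT arrays, 1 column per array, ordered by the difference within each block. Red is above and blue below the mean; the upper rows of the first block turn from blue to red between midday and mid-night and the lower rows of the second from red to blue.

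Of 35 proteasome genes 6 were higher by day and 1, the activator Psme3 (0.31), at night, with a median of -0.07. Of all genes 5.22% were higher by day, and of the 4148 with the highest levels, 609. Psma5 (-0.41 ± 0.06 log2 (SE), adjusted p = 5.41e-04) and Psma2 (-0.24 ± 0.03 log2 (SE), adjusted p = 1.44e-04), both of the core particle, led, and the count was 2 without set WT9 and 3 without ZT16. Among 36 coagulation and complement genes 4 were higher by day and 1 at night, against 5.22% and 4.38% of all genes. Serpinf2, which encodes α2-antiplasmin, had night arrays from 11.07 to 11.84 (median 11.55) and day arrays from 11.99 to 12.35 (median 12.16), without overlap (-0.69 ± 0.07 log2 (SE), adjusted p = 1.04e-05), and all 3 of its probes gave -0.69 or lower. The fibrinogen gene Fga, an acute phase gene, was lower at night too (-0.37), and Saa4 higher (1.18 ± 0.25 log2 (SE), adjusted p = 0.00534). St6gal1, the sialyltransferase of secreted glycoproteins, had night arrays from 8.81 to 9.24 (median 9.02) and day arrays from 9.88 to 10.29 (median 10.01), without overlap (-1.02 ± 0.05 log2 (SE), adjusted p = 9.57e-09). Egr1, an immediate early gene, had night arrays from 6.17 to 8.87 (median 6.72) and day arrays from 7.96 to 11.86 (median 8.84), with a wide spread in both phases (-2.09 ± 0.32 log2 (SE), adjusted p = 4.61e-04).

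The remaining genes with the largest differences and no overlap between the groups fell outside these lists. At night they were Noct (1.88), whose enzyme removes phosphate from NADPH and is rhythmic in many tissues, Rcan1 (1.36), an inhibitor of calcineurin, Ccn2 (1.29), a matricellular protein gene that YAP induces, and Gde1 (1.11), a phosphodiesterase of glycerophosphodiesters, for which 3 probes gave 1.10 to 1.13. By day they were Fbxo21 (-1.71), a ubiquitin ligase subunit, Gm4952 (-1.38), Csrp3 (-1.19), a LIM protein known from muscle, the steroid dehydrogenase Hsd3b5 (-1.16), and Casp6 (-1.05), a caspase. Other probes gave smaller differences for Noct (0.70), Rcan1 (0.80), Csrp3 (-0.85 and -0.42) and Casp6 (-0.65). Some broad lists had few calls. ER translocation and N-glycosylation had none of 27 members past the threshold, and oxidative phosphorylation had 2 of 72, with a median of 0.06 and 58 members above 0. Hepatocyte markers had none of 8, with a summed level from 15.85 to 15.97 at night and from 15.77 to 15.95 by day (log2). Of 18 endothelial markers Stab2 (-0.34), Oit3 (-0.26) and Egfl7 (-0.25) were lower at night, against 5.22% of all genes. The other endothelial markers did not pass, the list median was -0.04 and 6 members were above 0.

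The same contrast in KO liver gave 394 night-high (2.37%) and 504 day-high genes (3.04%). The KO differences share no array with WT, but their p-values came from a joint fit of both genotypes. The WT calls came from the WT arrays alone, so the KO and WT counts rest on different fits. The WT night-high genes had a difference above 0 in KO in 703 of 726 and the day-high genes one below 0 in 821 of 866. Of the 726, 288 were also called in KO (39.7% of the WT and 73.1% of the KO night-high genes), and of the 866, 381 (44% and 75.6%), with none called in the opposite direction. Per2 (1.94 in KO) and Tsc22d3 (1.57) had nearly the WT values, and the median KO differences of the night-high and day-high sets were 0.16 and -0.17, these sets having been selected in WT. When the difference between the genotypes was tested itself, 13 genes passed (0.0783% of all), all with a KO difference nearer 0 than in WT. Noct went from 1.88 in WT to 0.60 in KO (KO minus WT -1.28 ± 0.18 log2, adjusted p = 0.0014), Fmo5 from 1.23 to 0.58 (-0.65 ± 0.11 log2, adjusted p = 0.0176), and Hsd3b7 from -1.11 to -0.59 (0.53 ± 0.10 log2, adjusted p = 0.0444). Tgfbr2, a TGFβ receptor, went from -0.33 to 0.15 (0.48 ± 0.08 log2, adjusted p = 0.0176), though a second WT probe gave -0.02. Ccdc151, Itgae, Ndrg1 and Niban2 were among the others. This count was 7 with sets as blocks, 0 under median scaling, and 2 to 21 when single sets were left out (2 without KO5, 4 without WT6, 5 without WT9 or KO4, 6 without KO6, 21 without WT10), with 1078 genes below an unadjusted p of 0.05 in limma. In KO 8 of 24 heat shock genes were higher at night and 1 of 31 interferon-stimulated genes by day, compared with 11 and 12 in WT, and no member of either list passed the test of the difference between genotypes.

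**Figure D5:**
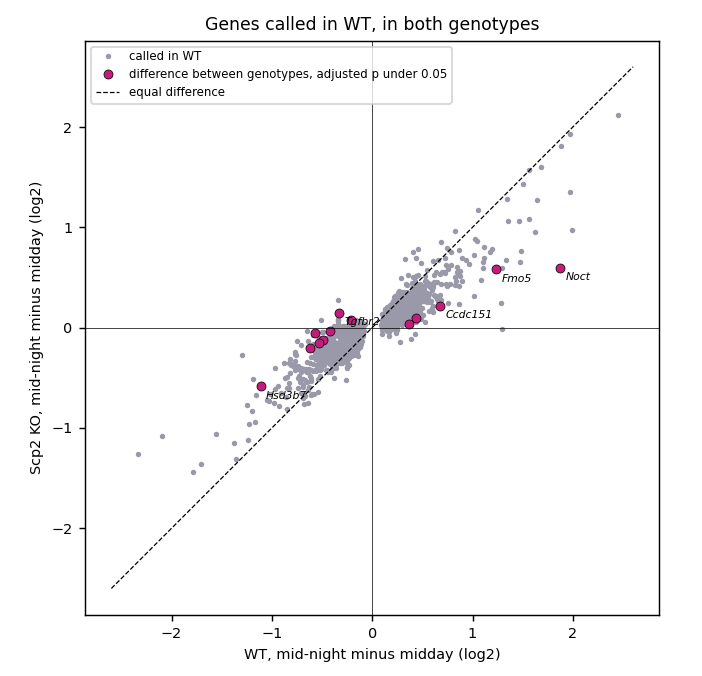
Mid-night minus midday log2 difference in Scp2 KO (vertical) against WT (horizontal) for the 1592 genes called in WT, 1 point per gene. The 13 filled points differed between genotypes at an adjusted p of 0.05 (5 are named) and lie nearer 0 in KO; the dashed line marks equal differences.

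Between dusk and dawn the night-high and the day-high genes both went either way, and most were not called. Of the 726 night-high genes, 103 were higher at dusk and 144 at dawn in the other 18 WT arrays. Of the 866 day-high genes, 142 and 111 were. Among all genes 3.76% were higher at dusk and 4.22% at dawn. Noct (1.88 here, 1.80 for dusk minus dawn) and Per2 (1.14) were high at dusk as well as at night, whereas Fmo5 (-0.02), Gde1 (0.62) and Tfrc (-0.18) had levels at dusk and dawn that differed less than those of night and day.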

How the data were processed

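Liver RNA was hybridised by the study to Illumina mouse BeadChips. The deposited signal table holds probe intensity without background subtraction, and the authors' deposited normalized table holds log2 values with equal array medians (6.69), made with Partek per the labels, with settings unknown here. Starting from the intensity, normexp background correction (offset 50), quantile normalization over all 72 arrays and log2 were applied in R 4.3.3 with limma 3.58.1. Of 25697 probes 23978 had 1 gene name and 1719 none. The brightest probe of each gene stood for it (16593 genes), with no filter on dim probes. A limma model with a mean for each of the 6 times gave the contrast, p-values being adjusted over every gene by Benjamini-Hochberg, and SE and p-values measure the spread between animals within a time. Medians of the deposited signals were 96.1 to 112 at night and 101 to 114 by day, so that depth does not apply and the number of arrays (9 and 9) limits precision.

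The probe of Alb, an abundant liver mRNA, lay only at the 57.1th percentile of level, so that a dim probe need not mean a low mRNA. Named genes were the 10 largest differences without overlap in each direction, all clock genes, up to 4 called members of each of 50 pathway lists with defining members, and up to 4 genes per direction that differed between genotypes. Further list members are given by name where a count is itemised. The genes, lists and tests were chosen with earlier results of these data known. Night and day deviations of the same set (WT6, WT9, WT10) correlated at 0.17, 0.26 and 0.33, so that the sets pair the arrays in the data, though what a set is was not stated. In simulated data 72% of genes moved by 0.25 log2 and 100% of those moved by 1 were recovered (50 each, of 16593 genes), with 10 false calls. The moved genes all had levels above the median, noise was independent between arrays and the times of a phase did not differ. Recovery in the real arrays, where sets correlate and times differ, can be another. Promoter windows were RefSeq's (GRCm38.p6), for 13336 genes.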

Additional observations from a re-analysis of the deposited data

Results flagged for a closer look

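Among the 376 groups of 9 WT arrays examined (188 named genes, night and day), 19 (5.05%) held an array set apart from the other 8 by more than Dixon's 95% limit, and chance alone gives about 1 in 20. At night the highest array stood apart for Abcg8 (9.606, log2), Agxt (10.15) and Atp5g1 (11.79), each in the ZT20 array of set WT6, for Gabarapl1 (9.618), H6pd (10.34) and Slc39a14 (6.336) in that of WT9, for Cyp2c55 (6.848) in that of WT10, and for Per3 (6.104) and Wipi1 (7.456) at ZT18. The lowest night array stood apart for Csrp3 (7.172), Mgll (8.62), Mid1ip1 (7.14) and Ppp1r15b (6.432) in the ZT20 array of WT6 and for Mrto4 (6.83) in that of WT9. By day the highest array stood apart for Bhlhe41 (5.939), Cyp2b10 (6.939), Hspb1 (7.5) and Nampt (6.945), all of set WT9, and the lowest for Ces1d (12.04), of WT6. The cause was not tested.

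For 8 named genes the night-day difference itself differed between KO and WT in limma. KO minus WT was -1.28 log2 for Noct, -0.652 for Fmo5, -0.458 for Ccdc151 and -0.339 for Itgae, and 0.525 for Hsd3b7, 0.522 for Niban2, 0.483 for Tgfbr2 and 0.423 for Ndrg1, in 18 arrays of each genotype.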

How the results depend on the processing

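Across the 18 alternatives no named gene that passed changed direction, and 75 of 165 such genes kept their call in all. With sets as blocks 884 genes were higher at night and 1003 by day, and of the named genes only Clock and Sqle were gained and none lost; with the deposited values and the labels' replicate number as block, 836 and 979, Iars and Mvd being lost. The genotype test gave 7 genes with sets as blocks. The deposited values without a block gave 698 and 835 genes.

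Median scaling gave 145 night-high genes, 7 heat shock, 2 ribosome biogenesis and 3 fatty acid synthesis genes, and 0 genotype differences. Leaving out a set gave 393 to 536 night-high, 530 to 580 day-high, 4 to 9 ribosome biogenesis, 3 to 6 fatty acid synthesis, 4 to 6 autophagy, 7 to 9 interferon-stimulated and 2 to 5 proteasome genes, and 2 to 21 genotype differences. Without ZT6 there were 7 ribosome biogenesis and 3 fatty acid synthesis genes; without ZT8, 436 night-high, 563 day-high and 5 ribosome biogenesis genes; without ZT16, 574 day-high, 5 ribosome biogenesis, 7 interferon-stimulated and 3 proteasome genes; without ZT18, 6 ribosome biogenesis and 5 autophagy genes. A minimum difference of 0.5 log2 left 119 and 131 genes. Fewer arrays entered each fit that left out a set or a time. Without ZT20, however, the counts were higher, with 742 night-high and 905 day-high genes against 726 and 866 with all times. The cause of these changes, and of those under median scaling, was not tested. Dim probes carry few calls: the 4149 dimmest genes held 2 calls in each direction and the next 4148 held 12 night-high and 8 day-high.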
